A study of Homo sapiens with 8 samples.

Results

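The last 200 nt of mRNAs held 1129 of the 22311 IGF2BP1 peaks listed from H1299 cells exposed to DMSO (5.06%, interval 4.78% to 5.36%) and 1013 of the 22123 peaks listed from cells exposed to the inhibitor AVJ16 (4.58%, 4.31% to 4.86%). A peak was counted here as an end peak if it overlapped, by at least 1 nt and on the same strand, the last 200 nt of a spliced MANE Select protein-coding transcript (1 reference transcript per gene, from GENCODE release 44) whose 3' UTR is at least 600 nt long, so that the window lies clear of the stop codon. Of 19061 such transcripts, 12299 met the length limit and are called eligible mRNAs. An end peak was present in 859 of them with DMSO (6.98%) and in 723 with AVJ16 (5.88%), and these shares are also the background for the gene lists given further on.

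The cells were H1299, a line from a human non-small cell lung cancer, without genetic change, and they were exposed for 24 h to 1.5 µM AVJ16 or to 0.01% DMSO alone. Cells were irradiated at 254 nm with 400 mJ/cm2 to crosslink protein to RNA, and IGF2BP1 was precipitated for eCLIP, which sequences the RNA bound to a protein and compares it with a size-matched input library made without the antibody. For each treatment there were 2 IP and 2 input libraries, 8 in all, prepared in a pair of batches from 1 thaw of cells. The authors deposited 1 list of peaks per treatment with both replicates merged, each peak with a log2 fold enrichment of IP over input (the lowest is 3.00 in both lists) and a −log10 p that stops at 400. Neither values of single replicates nor read counts are in the lists, so library depth is unknown, no difference between the treatments was tested, and every interval below is a 95% interval that covers counting error only. A site under the thresholds is absent from a list whatever its level, and fewer mRNA molecules that carry an end cannot be told apart from less protein on each of them.

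The 3' end of most mRNAs is made by cleavage shortly after a polyadenylation signal, the hexamer AAUAAA or a variant such as AUUAAA, followed by addition of the poly(A) tail. CPSF reads the hexamer, CstF reads sequence beyond the cleavage site, and the finished end is covered by poly(A) binding proteins that act in translation and stability. IGF2BP1 is an oncofetal RNA binding protein with RRM and KH domains that binds mostly in 3' UTRs and is known for stabilizing its target mRNAs.

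Sites that show how end peaks lie relative to 2 sequence features are printed here as RNA, 5' to 3', 30 nt each, from the GENCODE release 44 transcripts on GRCh38. The first 5 are from the 5 genes with the most enriched DMSO end peak that holds CAUUC, a short sequence found in end peaks more often than in unbound mRNAs at the same positions. Capitals mark CAUUC.
SUMO3 (chr21:44805803-44805832, minus strand): gcugcuugguggcCAUUCucugccuuuuua
STARD3NL (chr7:38230600-38230629, plus strand): aaaugacuuaaacCAUUCauaucauguuuc
MBTPS2 (chrX:21885320-21885349, plus strand): cuguccuguaauuCAUUCuuaagcuuuaac
LANCL1 (chr2:210431430-210431459, minus strand): aguaagagcaccuCAUUCcuguguuuucuc
ALDH1A2 (chr15:57953630-57953659, minus strand): acaaacgacagugCAUUCagcagcccagug

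The next 5 are from the 5 most enriched DMSO end peaks that reach the polyadenylation signal itself, and the last pair is from RHOA and ARF1, mRNAs whose end windows held several neighbouring peaks. Capitals mark the signal.
STARD3NL (chr7:38230635-38230664, plus strand): cguucagccaauuucaAUUAAAaugaacua
RHBDD1 (chr2:226999167-226999196, plus strand): cuggaaugucagaaccAAUAAAuacuugug
HMGN4 (chr6:26546895-26546924, plus strand): cuuugaaauaucuuucAAUAAAguuuauaa
LRRC8A (chr9:128918004-128918033, plus strand): cucggucacaguaucaAAUAAAaucuauaa
ACLY (chr17:41866932-41866961, minus strand): aucauagucugguuuaAAUAAAcuauauag
RHOA (chr3:49359151-49359180, minus strand): uuccaacuacuaauagAAUAAAggcaguuu
ARF1 (chr1:228099174-228099203, plus strand): uaauuauagcuauuagAAUAAAaucucuua

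Fewer mRNAs had a peak in the end window than in any other window of the 3' UTR that was compared. With DMSO, 6.98% of eligible mRNAs had a peak in the last 200 nt (6.55% to 7.45%), against 10.1% in the 200 nt just upstream. Within the same mRNAs the difference was −3.16 percentage points (−3.61 to −2.70). The share was 9.72% at 401 to 600 nt from the end, 11.1% in the first 200 nt after the stop codon and 13.8% in the next 200 nt. With AVJ16 the end window was also lowest, at 5.88%, with 8.95% and 9.25% in the windows upstream of it, 10.2% directly after the stop codon and 12.5% in the next window. A window inside the 3' UTR can be entered by peaks from both sides and the end window from 1 side only. Covered nucleotides were also compared, but they share this limit. A base near the end can be covered only by peaks that stop between it and the end. Peaks covered 25.2 of every 1000 nt in the DMSO end windows, 41.9 at 201 to 400 nt, 42.6 at 401 to 600 nt and 37.6 over the whole 3' UTR. By downstream edge, which counts each peak once, the gap was smaller. End windows held 7.03% of DMSO 3' UTR peaks (6.64% to 7.43%) and 6.28% of AVJ16 ones, and made up 7.74% of eligible 3' UTR nt.

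Within the window the coverage fell toward the end. Of every 1000 eligible mRNAs, a DMSO peak covered a given base in 39.6 at 181 to 200 nt from the end, in 27.5 at 81 to 100 nt, in 16.1 at 41 to 60 nt, in 7.47 at 21 to 40 nt and in 1.20 in the last 20 nt. The AVJ16 values at the same places were 32.6, 23.2, 13.8, 6.77 and 0.984. The decline in coverage was thus steepest over the last 100 nt in both lists, where the nearby end limits which peaks can cover a base. Downstream edges of peaks changed less. With DMSO 150 lay at 181 to 200 nt, 99 at 81 to 100 nt, 105 at 21 to 40 nt and 37 in the last 20 nt. The AVJ16 numbers were 136, 104, 87 and 35. The last annotated nucleotide was reached by 1 DMSO peak and 0 AVJ16 peaks. Whether H1299 cells use the annotated end of each mRNA was not measured.

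**Figure D1:**
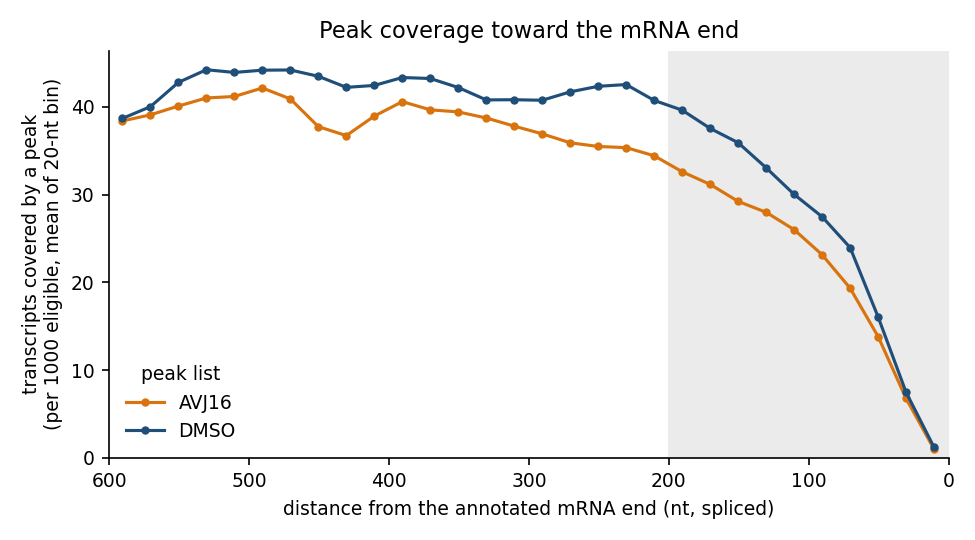
Mean number of mRNAs per 1000 eligible ones covered by a peak (vertical axis) against spliced distance from the annotated mRNA end in nt (horizontal axis, the end at the right), in 20-nt bins for the DMSO list (blue) and the AVJ16 list (orange), with the last 200 nt shaded. DMSO coverage fell from 39.6 at 181 to 200 nt to 1.20 in the last 20 nt, and AVJ16 coverage from 32.6 to 0.984.

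Long 3' UTRs separate the windows near the stop codon from those near the end. Among 5861 mRNAs with at least 2000 nt, the DMSO share with a peak was 5.77% in the last 200 nt (5.20% to 6.39%). The next 4 windows upstream lay between 8.43% and 8.98%, and the first 5 windows after the stop codon between 11.1% and 14.7%. With AVJ16 the end window was at 4.56%, the next 4 between 7.61% and 7.93%, and those after the stop codon between 10.0% and 13.2%. The interval of the end window overlapped that of none of the others in either list.

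**Figure D2:**
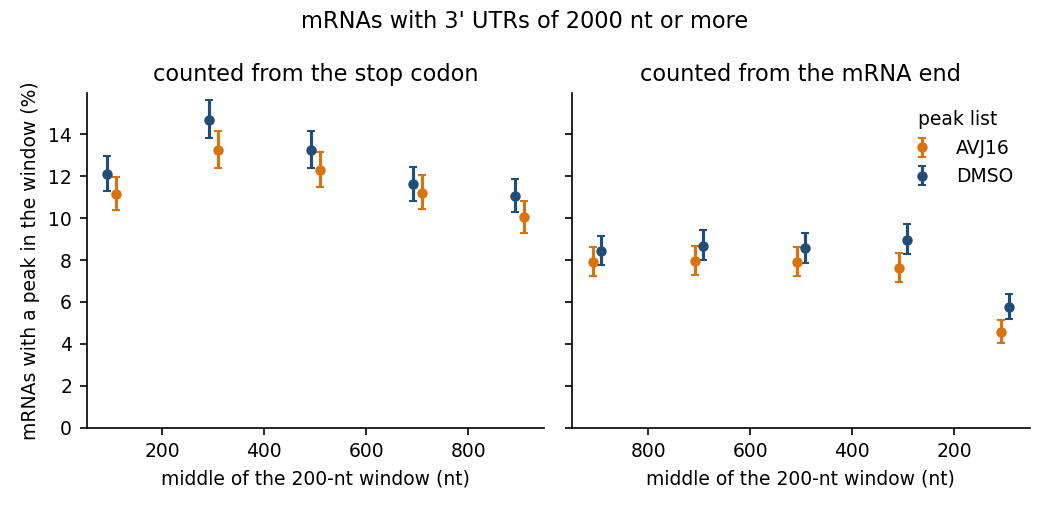
Share of the 5861 mRNAs with 3' UTRs of at least 2000 nt that have a peak in each 200-nt window (vertical axis, percent), by the middle of the window in nt from the stop codon (left panel) or from the mRNA end (right panel, the end at the right). Points are shares of the DMSO (blue) and AVJ16 (orange) lists, bars are 95% Wilson intervals, and the end window is lowest at 5.77% and 4.56%.

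Longer 3' UTRs had peaks more often, whereas end peaks were most frequent at 1000 to 1999 nt and less frequent above that. With DMSO, any 3' UTR peak was found in 17.4% of mRNAs with 600 to 999 nt and in 44.9% of those with at least 4000 nt. End peaks went from 7.58% (6.60% to 8.69%) in the shortest class to 8.41% at 1000 to 1999 nt, 6.53% at 2000 to 3999 nt and 4.44% (3.65% to 5.40%) in the longest. The AVJ16 shares of end peaks in these classes were 6.40%, 7.51%, 5.43% and 3.04%.

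Most mRNAs with an end peak had others further upstream. Of the 859 with DMSO, 687 had another 3' UTR peak and 172 had end peaks alone, and with AVJ16 the numbers were 598 and 125. A single end peak was listed in 652 mRNAs with DMSO, 167 had 2 and 40 had 3 or more. Peaks that touch are listed separately, and joining them gave 954 DMSO and 826 AVJ16 end sites. Wholly inside the window lay 630 DMSO and 601 AVJ16 end peaks, and the others extended upstream of it. Sequence inside end peaks thus includes bases outside the window. In each list 2 end peaks belonged to 2 transcripts, and 35 DMSO and 39 AVJ16 end peaks lay in a window that an exon of another gene shares. In the mRNAs with both kinds, an end peak was the most enriched 3' UTR peak in 247 of 687 with DMSO (36.0%, 32.5% to 39.6%) and in 212 of 598 with AVJ16 (35.5%). The best end peak of these mRNAs minus their best other peak had a median of −0.31 (−0.39 to −0.22) with DMSO and −0.29 (−0.37 to −0.21) with AVJ16. End peaks were 934 of the 4533 3' UTR peaks of these mRNAs with DMSO (20.6%) and 864 of 4463 with AVJ16 (19.4%). The most enriched peak thus usually lay outside the end window, as did most peaks of these mRNAs. It lay in the window in a larger share of mRNAs than the share of end peaks, which pools peaks over mRNAs. The best of more peaks tends to be higher, so the median gap does not compare single peaks.

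End peaks were enriched over input to about the same level as the rest. Their median log2 fold enrichment was 3.77 with DMSO (3.73 to 3.82), against 3.70 (3.69 to 3.71) for the other 3' UTR peaks of eligible mRNAs. With AVJ16 the medians were 3.71 (3.67 to 3.78) and 3.66. There was no course along the window, since DMSO medians were 3.78 for peaks whose downstream edge lay 1 to 50 nt from the end, then 3.73, 3.83 and 3.76 for each further 50 nt. At least 5 was reached by 66 DMSO end peaks (5.85%) and 41 AVJ16 end peaks (4.05%), close to the 4.99% and 4.12% of the other 3' UTR peaks. The median length was 69 nt with DMSO and 63 nt with AVJ16, equal to that of the other 3' UTR peaks of each list. At the limit of the window, the 83 DMSO peaks with their edge at 191 to 200 nt had a median of 3.77 and the 59 at 201 to 210 nt, just outside, one of 3.89. With AVJ16 the order was opposite, 3.95 for the 70 just inside and 3.69 for the 72 just outside.

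The polyadenylation signal was more frequent in mRNAs bound at their end. AAUAAA lay in the last 50 nt of 648 of the 859 mRNAs with a DMSO end peak (75.4%, 72.5% to 78.2%), of 67.8% (66.1% to 69.4%) of the 3078 with 3' UTR peaks elsewhere only, and of 66.1% of the 8362 without a 3' UTR peak. The first pair differed by 7.63 points (4.23 to 10.9). With AVJ16 the shares were 76.2% and 68.2%, 8.04 points apart (4.39 to 11.5). AUUAAA without AAUAAA was found at nearly equal rates, 15.8% and 16.0% with DMSO. Neither hexamer was present in 8.73% of mRNAs bound at the end, 16.2% of those bound elsewhere and 19.3% of those not bound.

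End peaks lay upstream of the signal. Of 1037 DMSO end peaks on mRNAs with either hexamer, 976 lay wholly upstream of it, 61 overlapped it (5.88%, 4.61% to 7.48%) and 0 lay wholly downstream. For the upstream ones the median gap to the signal was 94 nt (89 to 99). The choice of end peaks bounds this gap, since each has its downstream edge within the last 200 nt. The median gap therefore does not show a preferred distance from the signal. The AVJ16 numbers were 879 upstream, 50 overlapping and 0 downstream of 929, also with a median gap of 94 nt. With mRNAs aligned on the first base of the signal, DMSO coverage was 44.8 per 1000 mRNAs at 191 to 200 nt upstream, 8.01 in the last 10 nt before the signal, 3.97 in the 10 nt that start with it and 0.178 at 20 to 29 nt after it. The median signal began 23 nt from the end, so few nucleotides remain beyond it in which a peak could be mapped. The nearby end also limits coverage just upstream of the signal, so the fall does not show that peaks avoid the signal.

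**Figure D3:**
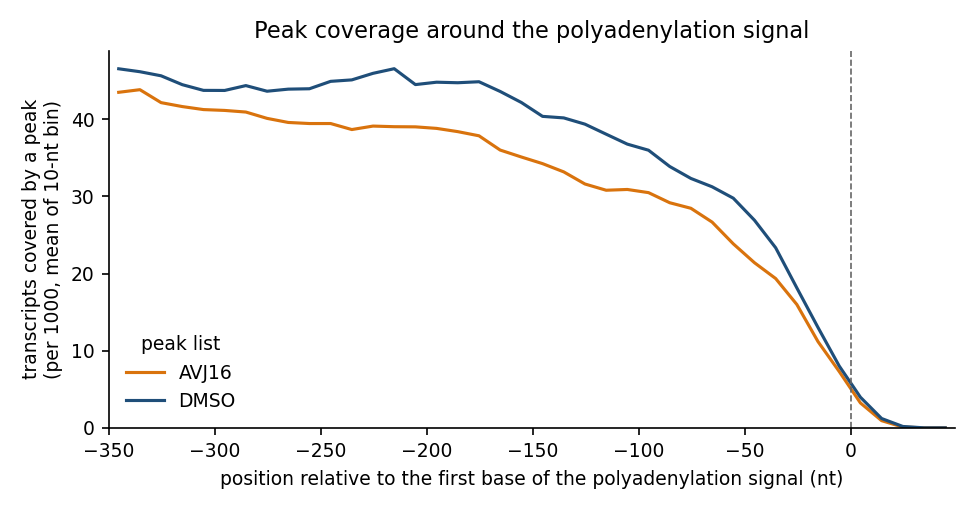
Mean number of mRNAs per 1000 with AAUAAA or AUUAAA in the last 50 nt that are covered by a peak (vertical axis), in 10-nt bins by position in nt relative to the first base of the signal (horizontal axis, dashed line at 0), for the DMSO (blue) and AVJ16 (orange) lists. Both curves fall steadily over about 200 nt before the signal, to 8.01 and 7.30 directly upstream of it, where the nearby mRNA end limits coverage.

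Among the 5 printed signal sites, the STARD3NL peak (a tether between endosomes and the endoplasmic reticulum) ran from 14 to 137 nt before the end and covered both its CAUUC and its AUUAAA, with a log2 fold enrichment of 5.35 with DMSO and 5.69 at the AVJ16 peak over it. RHBDD1, a rhomboid protease, had 5.29 with DMSO and 4.80 with AVJ16. For HMGN4, a nucleosome binding protein, the DMSO peak at 22 to 97 nt stood at 5.28 and the AVJ16 peak that overlaps it most, at 58 to 94 nt, at 6.21, the highest value of any AVJ16 end peak. The next AVJ16 peak of HMGN4, at 25 to 57 nt, had 5.28, so the rise lies in the part farther from the signal. HMGN4 has close relatives in the genome, and how reads were divided among such copies is not given in the sources used here. LRRC8A, a subunit of a volume-regulated anion channel, had 5.24 and 5.28. ACLY, which makes cytosolic acetyl-CoA, had 5.07 with DMSO and 4.31 with AVJ16. Values at the signal were thus higher with AVJ16 in some of these mRNAs and lower in others.

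Sequence inside end peaks was compared with that at the same spliced positions of all 11264 eligible mRNAs without an end peak in either list, on the transcript strand. CAUUC was held by 137 of 1129 DMSO end peaks (12.1%, 10.4% to 14.2%) against 6.93% at the same positions, a ratio of 1.75 (1.50 to 2.05), and by 10.6% of AVJ16 end peaks, a ratio of 1.68 (1.41 to 2.01). Against mRNAs that have 3' UTR peaks elsewhere only, the ratios were 1.72 and 1.65. CAUUC was searched because a longer sequence that contains it was already known to be frequent in 3' UTR peaks of these lists, so its ratio is not independent evidence. ACACA, a CA-rich sequence of the kind KH domains bind, had ratios of 1.22 (1.01 to 1.47) and 1.20 (0.971 to 1.48). AUUUA, the core of AU-rich elements, was less frequent in end peaks, at 0.831 (0.717 to 0.960) and 0.763 (0.642 to 0.902).

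The motif of CFIm, UGUA, was held by 43.4% of DMSO end peaks against 39.2% in unbound mRNAs, a ratio of 1.11 (1.04 to 1.18), but by 44.8% at the same positions of mRNAs bound elsewhere, a ratio of 0.968. GGACU, the usual context of m6A, had ratios of 0.975 (0.753 to 1.26) and 1.27 (0.988 to 1.63), so both intervals included 1. AAUAAA was held by fewer end peaks than unbound mRNAs at the same positions, at ratios of 0.715 (0.574 to 0.888) and 0.685 (0.535 to 0.873). For end peaks that stay more than 50 nt from the end the AAUAAA ratios were 0.602 (0.443 to 0.816) with DMSO and 0.601 with AVJ16, and for those that reach the last 50 nt they were 0.898 (0.664 to 1.19) and 0.815 (0.577 to 1.13). AUUAAA had ratios of 0.796 (0.611 to 1.03) and 0.621 (0.446 to 0.861). End peaks thus more often lay in mRNAs with AAUAAA in the last 50 nt. The lower share of AAUAAA inside them was clear only for peaks that stay more than 50 nt from the end. Those peaks cannot hold the signal of the last 50 nt. For peaks that reach it, both intervals included 1. Their bases included more C, 22.2% (21.8% to 22.7%) with DMSO and 23.1% with AVJ16 against 19.6% and 19.5% at the same positions, and less A, 26.4% and 25.8% against 28.0% in both.

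The 8 most enriched DMSO end peaks all had log2 fold enrichments above 5.8, and they were chosen for those values. The highest was in CRTC3, a coactivator of CREB, at 158 to 270 nt before the end, with 6.88. LIPA, lysosomal acid lipase, had 6.31 at 137 to 202 nt and 5.54 in the next peak at 49 to 136 nt. SLC35A4, of the nucleotide sugar transporter family, had 6.10, and EI24, a membrane protein of the endoplasmic reticulum, had 6.02. In FHL1, a LIM domain protein, 3 touching peaks had 6.04, 5.44 and 4.65 in order toward the end. In SLC38A9, an arginine-sensing lysosomal transporter, a pair had 4.90 and then 5.83, the second reaching to 40 nt from the end. CCNG1, cyclin G1, had 4 end peaks with 4.62, 5.81, 5.41 and 4.69 in that order. HACD2, a dehydratase of very long chain fatty acid synthesis, had 5.85 at 36 to 82 nt, 1 nt from its AAUAAA.

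With AVJ16, 7 of these 8 sites were listed too, each with a lower value, a direction that the choice by DMSO values favours. CRTC3 had 4.52, LIPA 5.74, SLC35A4 5.32, FHL1 4.39, EI24 5.47, SLC38A9 4.53 and CCNG1 4.49. In FHL1 the 3 AVJ16 partners had 4.39, 4.18 and 4.00, so the slope toward the end was smaller, and a peak at 40 to 55 nt with 4.41 was listed with AVJ16 alone. In CCNG1 the peak nearest the end had no AVJ16 partner. HACD2 had 23 AVJ16 peaks elsewhere in its 3' UTR, against 18 elsewhere with DMSO, and none in the last 200 nt.

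Several mRNAs were bound along nearly the whole window. RHOA, a small GTPase that controls the actin cytoskeleton, had the most end peaks, 9 touching ones that spanned 9 to 216 nt before the end. Their DMSO values in order toward the end were 3.84, 4.49, 4.82, 4.78, 5.27, 5.41, 5.51, 5.10 and 4.95, a rise up to about 56 nt from the end and a small drop over the signal printed above. With AVJ16 the site was listed as 6 peaks with 3.23, 4.04, 4.37, 4.87, 4.99 and 4.97. The differences between overlapping peaks ran from −1.25 at 151 to 163 nt to 0.019 at 9 to 39 nt, so the lists were closest over the signal and farthest apart upstream. ARF1, a small GTPase of Golgi vesicle formation, rose toward its signal in both lists, from 4.19 at 177 to 200 nt to 4.96 at 31 to 65 nt with DMSO and from 3.62 to 5.44 with AVJ16. Its differences ran from −0.58 in the farthest peak to 0.48 in the nearest.

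TXNDC5, a disulfide isomerase of the endoplasmic reticulum whose end is shared with the readthrough gene BLOC1S5-TXNDC5, was nearly flat, with 6 DMSO peaks between 5.28 and 5.50 and differences from −0.32 to 0.12. ACTG1, which encodes gamma actin and has many processed copies in the genome, had 6 DMSO peaks. They peaked in the middle of the window, with 4.43 at 132 to 150 nt against 3.04 at 167 to 195 nt and 3.47 at 18 to 83 nt, and all 5 with a partner were lower with AVJ16 (differences of −0.70 to −0.10). BSG, basigin, had 4 DMSO peaks between 3.81 and 3.97 and 7 AVJ16 peaks between 3.39 and 3.80, each lower than the DMSO peak over it. RTL8A, a gene of retrotransposon origin with near-identical neighbours among which reads may be divided, had 3 DMSO peaks (4.64, 5.15 and 4.84) and 6 shorter AVJ16 peaks between 3.77 and 5.06. SLC7A1, a transporter of cationic amino acids, had 5 peaks in each list, rising toward the end from 3.29 at 144 to 195 nt to 4.35 at 19 to 42 nt with DMSO, with differences of −0.13 to 0.30. AVJ16 thus gave more peaks than DMSO in BSG and RTL8A, all but 1 of them below the DMSO peak they overlap most, and fewer peaks in RHOA and ACTG1.

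**Figure D4:**
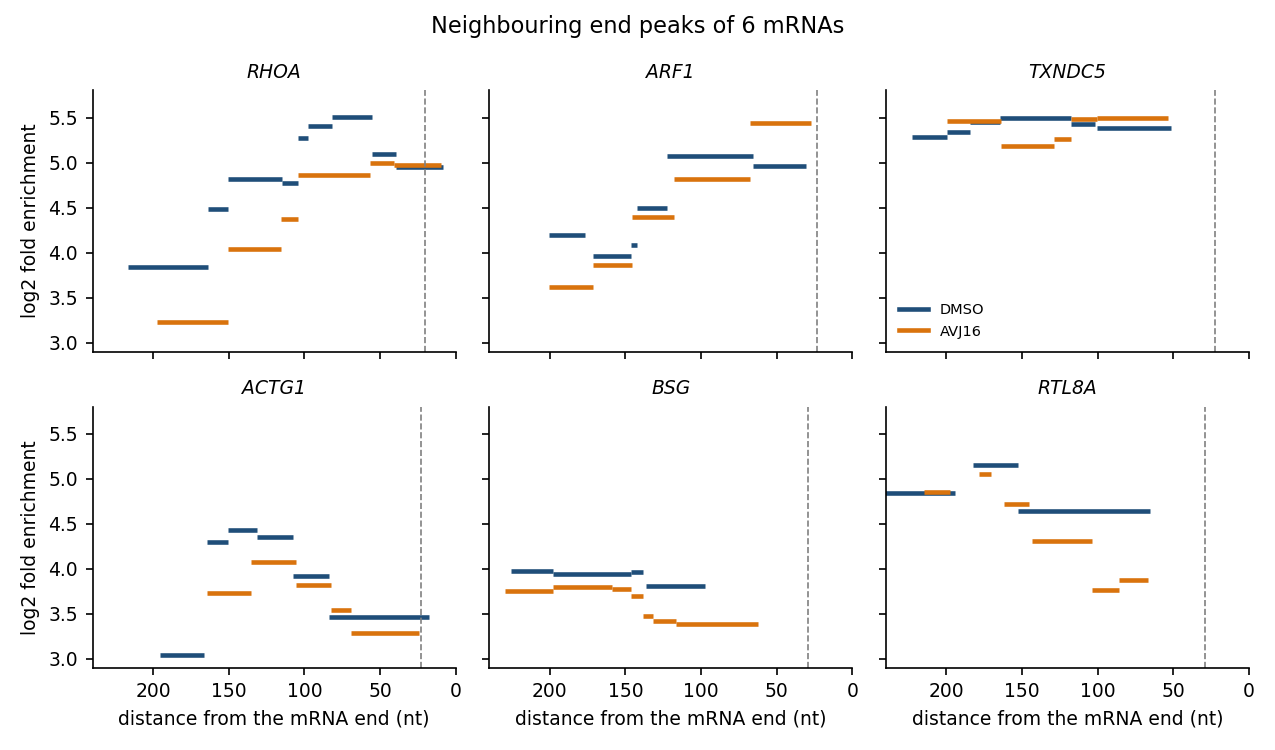
Log2 fold enrichment over input (vertical axis) of each end peak of 6 mRNAs, drawn as a bar from its upstream to its downstream edge by distance from the mRNA end in nt (horizontal axis, the end at the right), with DMSO in blue, AVJ16 in orange and the start of the polyadenylation signal dashed. RHOA and ARF1 are higher near the signal than in their farthest peaks, with a small drop in the DMSO peaks nearest it. TXNDC5 is flat between 5.28 and 5.50 with DMSO, and BSG is lower with AVJ16 at every peak.

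The AVJ16 list held fewer end peaks and about as many other 3' UTR peaks as listed. AVJ16 gave 1013 end peaks to 1129 with DMSO, a ratio of 0.897, and 15130 other 3' UTR peaks to 14941, a ratio of 1.01. End peaks were therefore 7.03% of all 3' UTR peaks with DMSO and 6.28% with AVJ16, 0.75 points apart (0.206 to 1.30). After touching peaks were joined, the ratios were 0.866 for end sites and 0.981 for other 3' UTR sites. Of mRNAs with any 3' UTR peak, 3937 with DMSO and 3541 with AVJ16, 21.8% (20.6% to 23.1%) and 20.4% (19.1% to 21.8%) had an end peak, shares whose intervals overlap. For joined sites the shares were 7.99% and 7.12%, 0.871 points apart (0.196 to 1.55). By covered nucleotides the ratio of AVJ16 to DMSO was 0.836 in the last 200 nt, 0.895 at 201 to 400 nt, 0.930 at 401 to 600 nt, 0.927 in the first 200 nt after the stop codon and 0.924 over the whole 3' UTR. Inside the window it was 0.883 in the last 50 nt, 0.830 at 51 to 100 nt and 0.834 at 101 to 200 nt, so the lower coverage with AVJ16 was not greatest at the very end. This difference has no replicate check, and each list was normalized to its own inputs. The intervals of these differences treat peaks as independent, although many sites are in both lists and several peaks can lie in 1 mRNA. They are therefore no test of the treatment.

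An end peak was called shared if a peak of the other list overlapped it by at least 1 nt on the same strand. Of DMSO end peaks, 762 of 1129 had an AVJ16 partner (67.5%, 64.7% to 70.2%), against 66.2% of all DMSO peaks and 70.9% of the other 3' UTR peaks. The last differed from end peaks by −3.37 points (−6.25 to −0.604), and weighting them to the enrichment of the end peaks gave 72.0%. From the other side, 787 of 1013 AVJ16 end peaks had a DMSO partner (77.7%, 75.0% to 80.2%), against 70.8% of all AVJ16 peaks and 74.5% of the other 3' UTR peaks (75.6% when weighted), 3.20 points higher (0.443 to 5.75). End peaks with DMSO were thus shared less often than other 3' UTR peaks and end peaks with AVJ16 more often. These opposite directions are not separate results. The shared end peaks were near equal in number, 762 and 787, and are divided by 1129 and 1013. The shares thus largely restate that AVJ16 had fewer end peaks. Sharing rose with enrichment, from 37.5% of DMSO end peaks between 3 and 3.25 to 95.5% of those of at least 5. Of the 762 partners, 710 were end peaks themselves, and 93 DMSO end peaks had a partner that also served another DMSO peak.

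By gene, 547 mRNAs had an end peak in both lists, 312 with DMSO only and 176 with AVJ16 only. An end peak with DMSO was thus found again with AVJ16 in 63.7% of mRNAs (60.4% to 66.8%), and the reverse in 75.7% (72.4% to 78.6%). Both shares divide the same 547 mRNAs, by 859 and by 723, so their difference restates the smaller AVJ16 number. Of the 312, 198 had an AVJ16 peak elsewhere in the 3' UTR and 114 had none. Shares by gene are not given here for another window, so these values are not shown to be particular to mRNA ends. The mRNAs of 1 list had weaker peaks. Their best end peak had a median of 3.45 with DMSO (3.39 to 3.53) against 3.95 in the 547 (3.89 to 4.01), and of 3.39 against 3.86 with AVJ16.

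At the 762 shared end peaks the AVJ16 log2 fold enrichment minus that of DMSO had a median of −0.11 (−0.17 to −0.067), with an SD of 0.595 over peaks. AVJ16 was lower at 441 and higher at 321. A difference beyond 0.5, the size limit of the study's own comparison, was seen in 183 lower (24.0%, 21.1% to 27.2%) and 93 higher (12.2%, 10.1% to 14.7%), whereas 486 (63.8%) stayed within it. Among all shared peaks 20.1% were lower and 12.6% higher by that much, with a median of −0.060, and among the other 3' UTR peaks 20.9% and 13.2%, also with a median of −0.060. The share of lower end peaks was thus a few points above the background and that of higher ones near it. Peaks of all DMSO values were pooled here, and falls beyond 0.5 were more common where that value was higher. At DMSO values of at least 5, 61.9% of end peaks and 60.2% of the other 3' UTR peaks were lower. The shares were 48.9% and 42.9% between 4.5 and 5, and 33.0% and 34.2% between 4 and 4.5. They were 15.2% and 13.3% between 3.5 and 4. Each interval of the end peaks included the other share. A difference at equal DMSO values was not tested.

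The difference depended on the DMSO value in end peaks and other 3' UTR peaks alike. Its median went from 0.24 at end peaks between 3 and 3.25 to −0.64 at those of at least 5, and from 0.27 to −0.69 at the others. A pair in which either value is under 3 cannot be listed, which limits falls at the low end. The DMSO value is also part of the difference, so lists that correlate imperfectly give such a course without any effect of AVJ16. Whether AVJ16 acts more on highly enriched sites was not tested. Across the 762 pairs the values of both lists had a Pearson r of 0.534, given as a description since the pairs share libraries and partners.

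**Figure D5:**
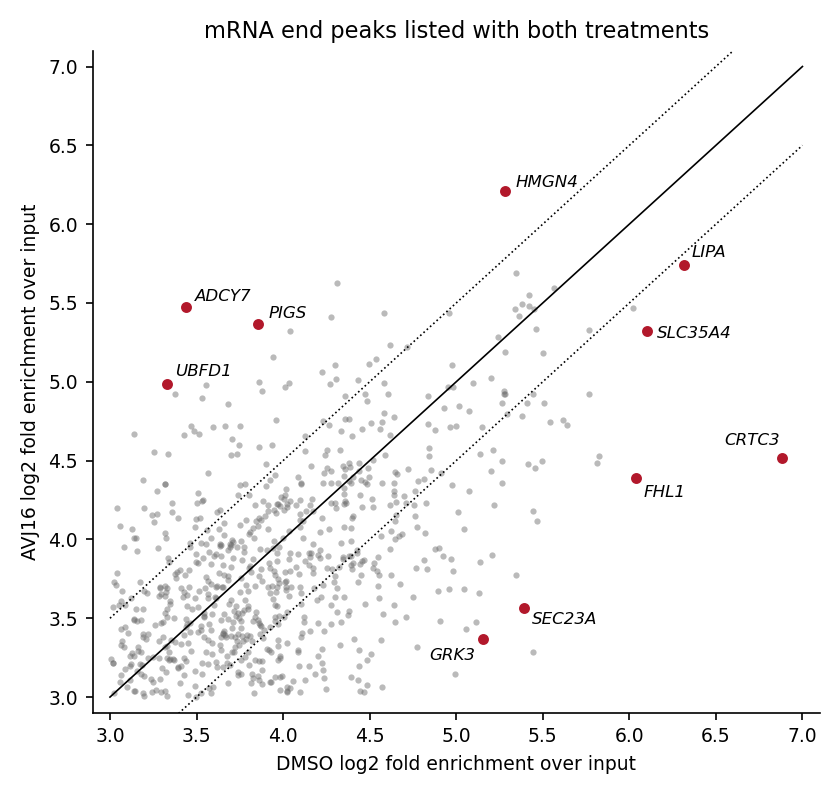
AVJ16 log2 fold enrichment (vertical axis) against DMSO log2 fold enrichment (horizontal axis) of the 762 shared end peaks, 1 point per DMSO peak, with the line of equal values and dotted lines 0.5 above and below it. Named genes in red include the lower CRTC3 (6.88 and 4.52) and the higher UBFD1 (3.33 and 4.98), and 183 points lie under the lower dotted line and 93 above the upper one.

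Relative to the rest of the same 3' UTR, differences at the end were spread about evenly to both sides. In 426 mRNAs with shared peaks of both kinds, the mean difference at the end minus that at the other peaks had a median of 0.024 (−0.034 to 0.087) and an SD of 0.62 over mRNAs. The end was lower relative to the rest in 207 and higher in 219. Both means were negative in 153 and both positive in 80, and in 193 the end and the rest had opposite signs. Of 151 mRNAs with several shared end peaks, all were lower with AVJ16 in 55, all higher in 26, and 70 had both directions. The same split is not given here for the other 3' UTR peaks.

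The largest falls at shared end peaks, after CRTC3 (−2.37), were the following. VMA21, an assembly factor of the vacuolar ATPase, had 5.45 with DMSO at 52 to 94 nt and 3.29 with AVJ16 (−2.16). That AVJ16 peak reached it by 3 nt only and lay mainly over the next DMSO peak of VMA21, whose value was 3.18, so the fall compares peaks at different places. PEX19, an import receptor of peroxisomal membrane proteins, had 4.99 and 3.15 (−1.85) at nearly the same place, and its last 50 nt held neither hexamer. SEC23A, a subunit of the COPII coat, had 5.39 and 3.57 (−1.82), also at nearly the same place. GRK3, a kinase of G protein-coupled receptors, had 5.16 and 3.37 (−1.79), and the same AVJ16 peak was also the partner of its neighbour (4.41).

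Among the largest rises, ADCY7, an adenylyl cyclase, went from 3.44 to 5.48 (2.03), but its partner, which overlaps the part of the DMSO peak outside the window, lay wholly upstream of the last 200 nt and served 2 peaks. UBFD1 went from 3.33 to 4.98 (1.66), at 112 to 164 nt before the end with DMSO and 111 to 159 nt with AVJ16. PTPRK, a receptor tyrosine phosphatase, went from 3.38 to 4.93 (1.55), with a further AVJ16 end peak of 4.68. PAQR8, a membrane progesterone receptor, went from 3.14 to 4.67 (1.53). PIGS, a subunit of the GPI transamidase, went from 3.86 to 5.36 (1.51), while its next end peak went from 4.64 to 4.12, so neighbouring peaks of 1 mRNA differed in direction.

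End peaks without any partner reached high values in a few mRNAs. After HACD2, the most enriched with DMSO were in DNAJC11, a J-domain protein of mitochondria (5.17, its single 3' UTR peak), and MFAP3, a microfibril-associated protein (5.07). With AVJ16 they were in DAG1, dystroglycan (5.24), MYORG, a glycosidase (5.24), and APOBEC3C, a cytidine deaminase (5.18). APOBEC3C had a DMSO end peak of 4.20 at another place, and DAG1 had 15 DMSO peaks elsewhere in its 3' UTR and none at the end.

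Genes that make, read or regulate 3' ends were looked up in 5 lists. Of 13 eligible cleavage and polyadenylation factors, 2 had an end peak in each list, CSTF2 and PAPOLA. CSTF2, the CstF subunit that binds RNA, had 3.57 with DMSO and 3.46 with AVJ16. PAPOLA, the main poly(A) polymerase, had a pair of DMSO peaks (3.19 and 3.15) under 1 AVJ16 peak of 3.56, and an AVJ16 peak of 4.32 at 188 to 200 nt without a DMSO partner. Of 23 genes of poly(A) binding and deadenylation, 3 had a DMSO end peak and 1 an AVJ16 end peak. BTG2, which recruits the CCR4-NOT deadenylase, had 4.04 and 3.91, whereas CNOT8, a deadenylase, and LARP1, which binds poly(A) and TOP mRNAs, were listed with DMSO alone (3.04 and 3.39).

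Of 26 RNA binding regulators of 3' UTRs, 4 had an end peak with DMSO. IGF2BP1 mRNA itself had 1 in each list, 3.86 with DMSO and 3.47 with AVJ16. YTHDF2, an m6A reader, had 4.56 at 12 to 56 nt, across its signal, and 4.02 with AVJ16, with a further AVJ16 peak of 3.34. MSI2, a Musashi protein, had 3.58 and 3.03. FMR1 had 2 DMSO end peaks (3.34 and 3.63) and no AVJ16 end peak, although an AVJ16 peak of 3.28 that lay outside the window overlapped the first. Of 14 known IGF2BP1 targets, HMGA2, an architectural chromatin protein, had an end peak with DMSO alone (3.73, 153 to 182 nt before the end), among 33 DMSO peaks and 37 AVJ16 peaks of its 3' UTR.

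Of 27 WNT pathway genes, 4 had a DMSO end peak and 3 an AVJ16 end peak. The transcription factor TCF7 had 4.47 with DMSO and 3.59 with AVJ16, and TCF7L2 had 3.32 with DMSO alone and no 3' UTR peak with AVJ16. Of the Frizzled receptors, FZD7 had 4.55 and 3.89, and FZD6 had 3.35 and 3.59. By share, end peaks were found in 15.4%, 13.0%, 15.4%, 7.14% and 14.8% of the 5 lists with DMSO, against 6.98% of all eligible mRNAs, and the interval of each list included that value (the narrowest, for the WNT genes, was 5.92% to 32.5%). With AVJ16 the shares were 15.4% for the cleavage and polyadenylation factors, 4.35% for poly(A) binding and deadenylation, 15.4% for the regulators of 3' UTRs (4 of 26, 6.15% to 33.5%), 0% for the known targets (0 of 14, upper limit 21.5%) and 11.1% for the WNT genes. The share of all eligible mRNAs was 5.88%, which lay just below the interval of the regulators and within those of the other lists. That background includes mRNAs without any 3' UTR peak. Of genes with such a peak with DMSO, 2 of 8, 3 of 16, 4 of 13, 1 of 10 and 4 of 18 had an end peak. The share of all mRNAs with a 3' UTR peak was 21.8%. With AVJ16 the counts were 2 of 7, 1 of 12, 4 of 17, 0 of 10 and 3 of 17, against 20.4%. These counts are small. Levels of these mRNAs in the cells were not measured in the lists.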

How the data were processed

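IGF2BP1 eCLIP of H1299 cells gave 1 merged peak list per treatment. According to the study's methods, reads were trimmed with cutadapt, freed of repetitive elements, aligned by STAR and collapsed for PCR duplicates, CLIPper called the peaks, and IP and input reads were compared in each. The −log10 p of each peak is the authors' value, and so is the deposited log2 fold enrichment, scaled within each list. The file labels name IDR, and the merging of replicates is not described further in the sources used here. The labels give hg38, whereas the study's methods name an older Gencode release. Here GENCODE release 44 on GRCh38 was used.

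Spliced distances from the mRNA end, partners (the peak of the other list with the largest overlap), hexamers in the last 50 nt and motifs were computed with Python 3.11.15 (matplotlib 3.10.9, pandas 2.3.3, numpy 2.4.6 and scipy 1.17.1). Motifs were searched on the transcript strand, with overlapping matches allowed. A gene of the lists and a motif are not reported here. Shares have Wilson intervals, differences of shares Newcombe or paired intervals, and medians order-statistic intervals, all at 95%. Motif ratios divide the Wilson bounds by the unbound share. Mapping, pairing, signal search and intervals were checked on simulated data whose answers were known.

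End peaks, lists and motifs were chosen with earlier results of these data known. Named genes were the 8 with the most enriched DMSO end peak, the 5 with most end peaks in each list, the 5 largest falls and 5 largest rises, the 3 most enriched end peaks without partner in each list, and listed genes with an end peak. Genes of the printed CAUUC and signal sites were chosen after their values were seen. Alternatives were other windows, 3' UTR lengths, thresholds, overlaps and pairings. The RNA-seq and proteomics of the study were not used here.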

Additional observations from a re-analysis of the deposited data

How the results depend on the processing

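No paired analysis was possible because the lists hold both replicates merged, and for the same reason no replicate could be left out. Windows of 100 and 300 nt gave 475 and 1782 DMSO end peaks and 420 and 1664 AVJ16 end peaks, found in 3.58% and 9.66% of eligible mRNAs with DMSO, with 73 and 284 lower and 43 and 167 higher shared peaks. The end minus the upstream window came to −2.18 points for 300 nt, and the AAUAAA difference to 11.6 points for 100 nt. With the larger part of a peak required inside the window, 5.67% of mRNAs had a DMSO end peak and the window difference was −4.47 points.

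A log2 fold enrichment of at least 4 left 401 DMSO and 344 AVJ16 end peaks, in 2.48% of mRNAs with DMSO, a window difference of −1.37 points, partners for 53.1% and 63.4%, 43 lower and 19 higher. It turned the median enrichment of DMSO end peaks minus other 3' UTR peaks from 0.066 to −0.016 (−0.056 to 0.036). A −log10 p of at least 10 left 678 and 607, in 3.87% of mRNAs, a window difference of −2.11 points, partners for 71.7% and 83.2%, 100 lower and 52 higher. Partners that share 50% of both peaks were found for 55.9% and 61.3%. A limit of 1 gave 51 lower and 29 higher. Centring on all shared peaks moved the median difference to −0.047 (−0.11 to −0.0075).

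The share of end peaks among 3' UTR peaks was higher with DMSO under all alternatives run. However, the interval of the difference included 0 for the last 100 nt (0.354 points, −0.005 to 0.714) and for peaks mostly inside the window (0.464, −0.018 to 0.947). It also did at the threshold of 4 (0.520, −0.491 to 1.53). This interval treats peaks as independent and is no test of the treatment. Peaks widened by 25 nt gave AAUAAA ratios of 0.969 and 0.995 and CAUUC ratios of 1.49 and 1.54, and with them the intervals of AUUUA (0.935, 0.843 to 1.03, and 0.905, 0.807 to 1.01) and of ACACA with DMSO (1.14, 0.978 to 1.31) included 1. Depth is unknown, so weak sites near the thresholds limit every share of shared peaks.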
